A study of Mus musculus with 96 samples.

Results

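The integrin, cadherin, laminin and syndecan genes are the genes through which a fibroblast grips its matrix and its neighbours. They were taken from the deposited expression table of serum-stimulated mouse embryonic fibroblasts (MEFs) by symbol alone, as every row that names an integrin alpha or beta chain, a numbered cadherin, a laminin chain or a numbered syndecan. The symbol pattern found 62 of 15895 genes. These were 21 cadherins, 15 integrin alpha chains, 8 integrin beta chains, 5 laminin alpha chains, 6 laminin beta and gamma chains and 4 syndecans. The other 3 rows are Itgb1bp1, Itgb1bp2 and Itgb3bp, whose symbols match although they name proteins that bind integrin tails, or in the case of Itgb3bp a centromere protein, and not integrin chains. They are described after the syndecans. Cdh1 is cadherin 1 (E-cadherin) and not the activator of the anaphase-promoting complex that shares this name.

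Primary MEFs of the CF-1 strain came from embryos of day 13. They were starved for 36 h with serum at 0.5%, after which fetal calf serum was raised to 20%. RNA was sequenced in 2 time courses, called Cycle 1 (63 libraries used, from -1 to 38 h) and Cycle 2 (32 libraries used, to 27 h). The control is 4 starved libraries, taken at -1 and 0 h in each Cycle, and all cells share the strain, the age and the starvation. The libraries after serum were pooled into 9 windows of 5 to 15 libraries, and the last window, 28-38 h, holds Cycle 1 only. A value is a normalized signal, that is, reads on the exons of a gene scaled so that every library has the same total of 10000000. A member was called when limma gave a Benjamini-Hochberg adjusted p under 0.05 over all genes tested, a log2 change from starved cells above 1 in size, and the same sign in each Cycle sampled. Changes are differences of log2(value + 1) and understate those of low genes. The labels do not say that the libraries of a time course came from separate cultures, so the p-values measure the spread between libraries, which may be technical. As these are bulk samples, fewer cells of a type and less RNA per cell cannot be told apart.

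The depth of a library, recovered from the smallest step between its values, ranged from 5068424 to 14492754 reads (median 10834236). At the median depth 1 read was worth slightly under 1 unit of signal, so that Itgb7, Cdh8 and Cdh22 rested on few reads per library. The 24.5 h library of Cycle 1 stood apart, with a median distance of 0.411 (log2) from the mean of its neighbours over 9112 genes. The libraries at 5.5 h and 26 h of Cycle 1 followed at 0.235 and 0.227, and 81 others, without the 24 and 25 h neighbours, lay between 0.0524 and 0.175. Without these 3 libraries the counts of members higher and lower in 1 or more windows, given below as 14 and 25, did not move.

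Integrins are receptors made of 1 alpha and 1 beta chain, and the pair decides the ligand: fibronectin, vitronectin, collagen or laminin. Cadherins join neighbouring cells through calcium-dependent contacts, and the classical ones are tied to actin by catenins. Laminins are trimers of an alpha, a beta and a gamma chain and form the scaffold of basement membranes, and syndecans are transmembrane proteoglycans whose heparan sulfate chains hold growth factors and matrix proteins beside the integrins. Several integrin and matrix genes are known targets of serum response factor and of the AP-1 family, which serum activates in fibroblasts.

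The promoters of Itga5, Sdc4 and Sdc1 are shown because these genes had large early rises at high levels. RefSeq windows (GRCm38.p6) were found for 38 of the 62 members. Each sequence is the 250 bases before the gene start, 5′ to 3′ on the strand of the gene, and capitals mark GGGCGG, the letters of a GC box, or its reverse complement.
Itga5 (chr15:103366792-103367041, minus strand): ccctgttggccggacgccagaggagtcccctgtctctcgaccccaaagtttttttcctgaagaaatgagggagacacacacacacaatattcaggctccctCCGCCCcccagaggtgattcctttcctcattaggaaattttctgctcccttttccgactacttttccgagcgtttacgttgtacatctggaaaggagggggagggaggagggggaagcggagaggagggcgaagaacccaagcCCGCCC
Sdc4 (chr2:164443189-164443438, minus strand): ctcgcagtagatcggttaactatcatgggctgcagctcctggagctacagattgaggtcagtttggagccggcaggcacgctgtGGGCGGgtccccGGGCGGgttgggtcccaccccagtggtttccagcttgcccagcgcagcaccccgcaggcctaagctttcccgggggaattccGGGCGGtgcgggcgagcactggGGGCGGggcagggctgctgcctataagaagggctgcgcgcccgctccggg
Sdc1 (chr12:8771146-8771395, plus strand): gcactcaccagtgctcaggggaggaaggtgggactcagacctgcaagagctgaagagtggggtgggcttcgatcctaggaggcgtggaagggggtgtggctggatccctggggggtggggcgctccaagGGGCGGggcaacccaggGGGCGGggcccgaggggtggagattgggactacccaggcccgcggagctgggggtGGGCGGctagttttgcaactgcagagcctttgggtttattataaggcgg
Itga5 held 2 matches, both on the opposite strand, Sdc1 held 3 and Sdc4 held 4. GGGCGG was found on either strand in 32.74% of all 32851 promoter windows and in 15 of the 38 members, 5 of the 9 with a rise and 5 of the 14 with a fall. The AP-1 letters TGANTCA were in 6.75% of all windows and in 1 member, and the E box CACGTG was in 6.02% and in 1. The TATA letters TATAAA stood in 12.37% of all windows and in 0 of the 38 members. The CArG box of serum response factor, searched by its consensus, was in 1.47% of all windows and in 2 members, and in neither those called higher nor those called lower. The median GC content was 58.4% in the 43 windows of members and 52.4% in all windows. The percentages count windows, while members are counted as genes, so the 2 are not alike. A match is a description of letters and not of binding, and sites outside these 250 bases were not searched.

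Of the 62 members 52 passed the filter of a mean value of 10 or more. Cdh7, Cdh15, Cdh16, Cdh20, Cdh26, Itgad, Itgax, Itgb6, Itgb8 and Itgb1bp2 did not and were not tested. Among the 52, 14 were higher than in starved cells in 1 or more windows, 25 were lower, Cdh18 and Itga2 being both (2.89% of all genes), and 15 were called in no window. Of those called higher, Itgb7, Cdh22, Cdh23 and Lamc3 had starved means under 10 and passed the filter only through libraries after serum. Over all 12804 genes tested 15.8% were higher in 1 or more windows, 34.3% were lower and 47.2% were called in either direction. Early on, rises led. By limma 3 members were higher and 0 lower at 0.5-1.5 h (4 lower at an unadjusted p under 0.05, and 3 called in all by edgeR), beside 2.64% and 3.69% of all genes, and 6 were higher and 3 lower at 2-3 h, beside 6.28% and 18.1%. At 3.5-6 h 12 were higher and 14 lower, beside 7.29% and 17.9% of all genes. From 6.5 h falls outnumbered rises in each window. There were 10 rises and 15 falls at 6.5-10 h (all genes 7.04% and 14.1%), 9 and 12 at 10.5-14 h (6.97% and 12.7%) and 5 and 12 at 14.5-18 h (7.42% and 12.6%). Rises were rarer still afterwards, with 3 and 12 at 18.5-23 h (7.71% and 14.3%), 2 and 16 at 23.5-27 h (7.15% and 15%) and 2 and 13 at 28-38 h (6.39% and 12.1%). The median change of the tested members was -0.40 at 3.5-6 h, against -0.23 for all genes tested, and -0.62 at 18.5-23 h, against -0.05. Since each library was scaled to the same total, the median of all genes moved too, most at 2-3 h, where it was -0.32. With TMM scaling that median rose by 0.28, the split at 2-3 h became 8 higher and 0 lower, the falls of Cdh3, Itga4 and Itga8 there being lost, and the split at 3.5-6 h became 12 and 9.

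**Figure D1:**
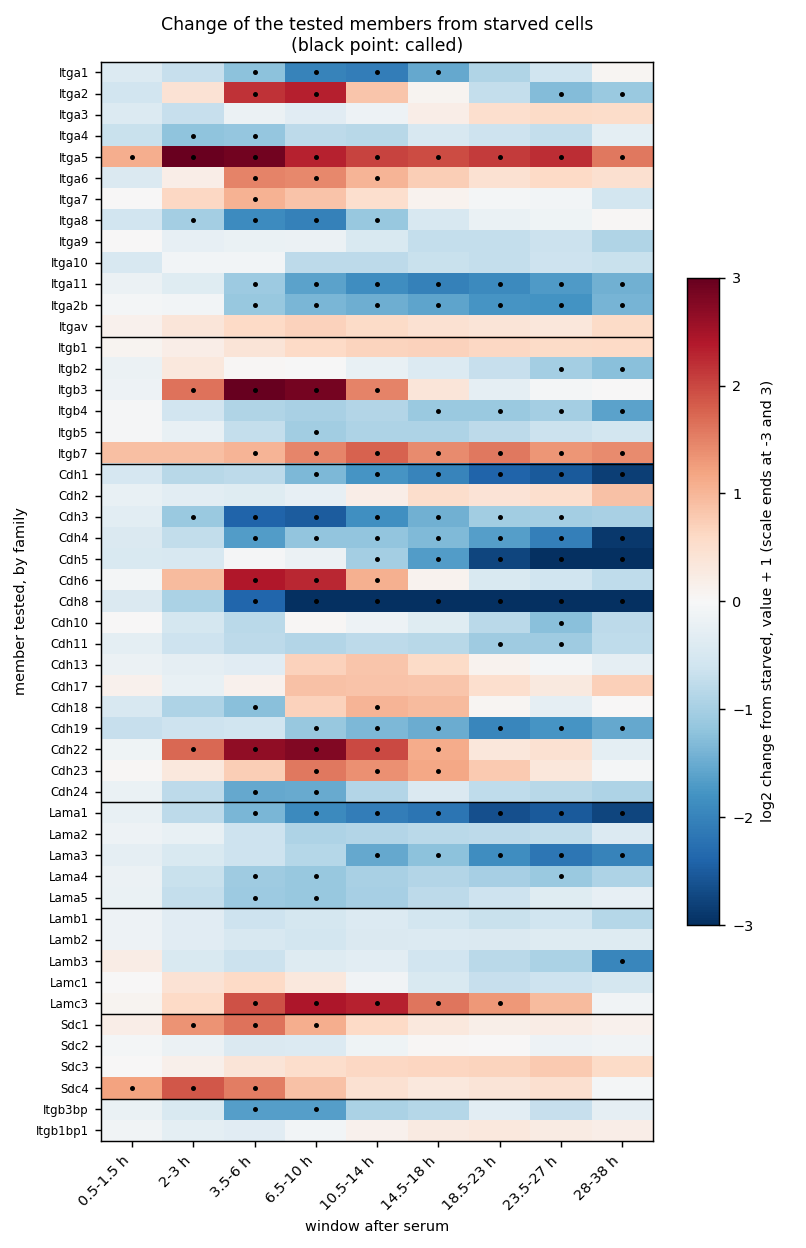
Change from starved cells (log2, colour) of 51 of the 52 tested members in each of the 9 windows after serum (columns), with members in rows by family and a black point where a member was called. Itga5 is called higher in all 9 windows, Sdc4 in the first 3, and the cadherin and laminin alpha blocks hold 0 calls before 2 h.

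Among the integrin alpha chains, 4 of the 13 tested were called higher and 6 lower in 1 or more windows, Itga2 being both, beside 15.8% and 34.3% of all genes. Itga5, the alpha chain of the classical fibronectin receptor, was the highest of them and had the largest rise. Its starved values were 1789 and 1873 in Cycle 1 and 3501 and 3382 in Cycle 2. At 1 h it stood at 3736 and 3982, at 1.5 h at 11176 and 7113, and at 3 h at 24133 and 21051. At 0.5 h, sampled in Cycle 2 only, it was 4041, and each library from then on lay above all starved ones. At 2-3 h the values were 13695, 20009 and 24133 (lowest, median, highest of 6) and the change was 2.95 ± 0.20 (SE; 7.75-fold, adjusted p = 3.28e-23 by limma). Itga5 was the only member higher in all 9 windows, as were 0.523% of all genes. In Cycle 1 the level then declined from 10608 at 28 h to 8077 at 33 h and 3869 at 38 h. On NCBIM37, the build of the files, Itga5 lies on the minus strand at chr15:103174720-103197194.

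The other receptors for fibronectin and vitronectin moved differently. Itgav, which pairs with several beta chains and had the next highest mean, changed by 0.69 ± 0.16 at 6.5-10 h (adjusted p = 8.7e-05), under the threshold of 1, with values of 3451, 4257 and 5069 against 2014 to 3492 in starved cells. Itga8, the alpha chain of a receptor for nephronectin and fibronectin, fell by 2.03 on the log2 scale at 6.5-10 h (SE 0.19, adjusted p = 7.52e-16). Its starved values were 328 and 456 in Cycle 1 and 834 and 785 in Cycle 2, with a median of 621. The median over both Cycles was 106 at 6.5-10 h and 536 at 23.5-27 h, when 1 of 10 libraries was below every starved one. Against the starved cells of the same Cycle the change at 23.5-27 h was 0.01 in Cycle 1 and -0.32 in Cycle 2. Itga4, part of a receptor for fibronectin and Vcam1, fell by 1.20 at 2-3 h (SE 0.23, adjusted p = 3.16e-06), a call that was lost under TMM scaling, where the change was -0.92.

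The collagen receptors split. Itga2 rose for a time. Its starved values were 17.3 to 48.6, its values at 6.5-10 h were 68.7, 160.6 and 236.6, and the groups did not overlap. The change was 2.33 ± 0.40 (5.04-fold, adjusted p = 3e-07), and from 23.5 h on it was called lower than in starved cells. Itga1 went the other way. Its starved values were 204 to 432, its values at 10.5-14 h were 28.7, 56.1 and 121.7, and all 11 libraries of that window lay below the starved ones. The fall was the largest of a called alpha chain (-2.08 ± 0.18, adjusted p = 8.51e-18), and in the last window Itga1 was back at 159 to 294 and not called. Itga11, a collagen receptor of mesenchymal cells, fell more slowly and stayed low, from 1205 to 1500 in starved cells to 223 to 485 at 14.5-18 h (-2.04 ± 0.14, adjusted p = 3.05e-23), and it was called lower in all 7 windows from 3.5 h. Itga10 was not called, with a change of -0.79 ± 0.24 at 6.5-10 h.

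Of the laminin receptors Itga6 was higher from 3.5 to 14 h and Itga7 at 3.5-6 h alone. Itga6 had values of 174 to 241 in starved cells and of 278, 762 and 1003 at 3.5-6 h (1.49 ± 0.23, adjusted p = 2.5e-08), with 0 of 9 libraries inside the starved range. Itga7, best known from muscle, rose to 257 to 354 from 120 to 190 (1.04 ± 0.14, adjusted p = 3.77e-10), and this call was lost without the 0 h library of Cycle 1 (0.93) and with means per Cycle and window (0.98). Itga3, whose product also binds laminin, changed by -0.70 ± 0.12 at 2-3 h and was not called. Itga2b, the platelet alpha chain, fell from 18.1 to 69.1 in starved cells to a median of 9.7 at 23.5-27 h (-1.78 ± 0.31, adjusted p = 5.26e-07). Itga9 was called in no window.

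Per kilobase of the longest annotated transcript, the scale on which genes can be compared, Itga5 made up 31.8% to 41.4% of the summed integrin alpha signal in starved cells and 75.4% to 85.5% at 2-3 h. It was still at a median of 72.6% at 23.5-27 h. Over the same windows the share of Itgav went from a median of 23.8% to 8.6% and 15.9%, and that of Itga11 fell from 18.2% to 3.95% at 2-3 h. The summed alpha chain signal per kilobase was 1277 to 1932 in starved cells and 4146 to 6481 at 2-3 h, so that these shares fell within a larger sum.

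**Figure D2:**
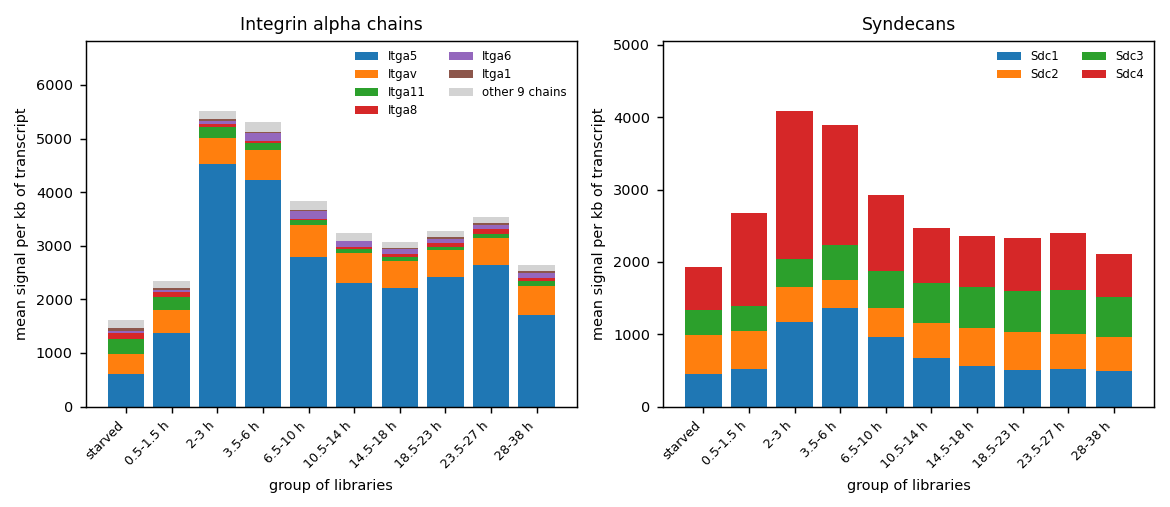
Mean normalized signal per kilobase of transcript, stacked by gene, of the integrin alpha chains (left) and the syndecans (right) in starved cells and the 9 windows after serum. Itga5 fills most of the integrin alpha bar from 2 h on, and Sdc4 and Sdc1 widen at 2-3 h and 3.5-6 h.

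The integrin beta chains were led by Itgb1, the partner of most alpha chains, and by Itgb5. Itgb1 had the highest level of any member per kilobase in starved cells and was called in no window. Its change at 14.5-18 h was 1.01 in Cycle 1 and 0.29 in Cycle 2 (difference -0.72, adjusted p = 2.78e-06 by limma). Its starved values were 11844 and 12042 in Cycle 1 and 19920 and 20158 in Cycle 2, its values at 14.5-18 h were 22060, 24736 and 25449, and the change of 0.69 ± 0.08 (adjusted p = 1.87e-11) stayed under the threshold, although all 12 libraries lay above the starved ones. Itgb3, the beta chain of the vitronectin receptor and of the platelet fibrinogen receptor, had the largest rise among all members. Starved libraries held 237 to 373, the libraries at 3.5-6 h held 2361, 3011 and 3406, and the groups were far apart (3.28 ± 0.21, 9.73-fold, adjusted p = 1.24e-24). Its highest values were 3406 at 4.5 h in Cycle 1 and 3324 at 6 h in Cycle 2. Itgb3 was not above the starved range at 1 h and was at 555 and 453 at 2 h, later than Itga5, and at 23.5-27 h it was back at 223 to 343. Itgb7, a leukocyte beta chain, rose from 1.9 to 6.0 to a median of 17.4 at 10.5-14 h (1.77 ± 0.27, adjusted p = 1.39e-08) and, with a starved mean of 3.9, passed the filter only through the windows in which it was high.

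Falls among the beta chains were smaller. Itgb5, another partner of Itgav, fell from 2480 to 2688 in starved cells to 900, 1077 and 1781 at 6.5-10 h (-1.03 ± 0.10, adjusted p = 4e-16), and the change was -0.93 and no longer called under TMM scaling. Itgb4, the laminin receptor chain of hemidesmosomes, was lower from 14.5 h. Itgb2, the beta chain of leukocyte integrins, had the largest fall of a beta chain with a mean of 20 or more. It stood at 54.1 to 101.1 in starved cells and at 9.7, 20.5 and 28.3 at 28-38 h, with all 11 libraries below the starved range (-1.26 ± 0.21, adjusted p = 2.32e-07). The 10 macrophage and blood markers found in the table, which any macrophages in the culture would carry, summed to 1316 to 3873 in starved cells and 701 to 2637 at 23.5-27 h. Of these 7 were called lower and 2 higher in 1 or more windows, and their part in the Itgb2 values was not tested.

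**Figure D3:**
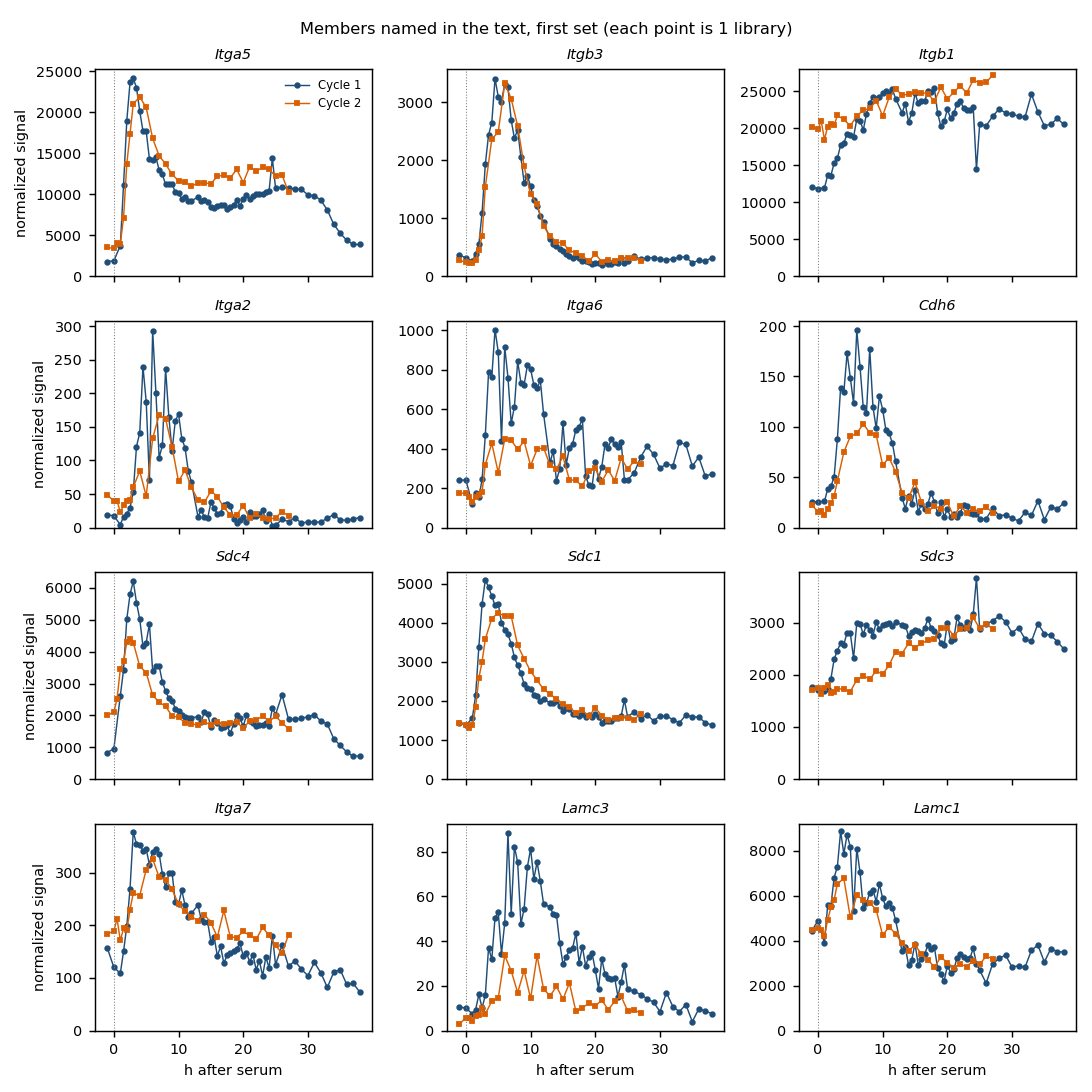
Normalized signal (vertical axis, from 0) against hours after serum (horizontal axis) of 12 members in Cycle 1 (circles) and Cycle 2 (squares), each point 1 library. Itga5 and Sdc4 rise before Itgb3, and Sdc1 peaks at 3 h in Cycle 1 and 5 h in Cycle 2. Itgb1, Sdc3 and Lamc1 are shown as the members of highest mean in their own families, and they were not called.

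Of the 16 cadherins tested 10 were lower and 4 higher in 1 or more windows, beside 34.3% and 15.8% of all genes. Cdh11, the cadherin of mesenchymal cells, had by far the highest level, at a median of 79.7% of the summed cadherin signal per kilobase in starved cells. It held 8949 to 11503 in starved cells, and every library after serum lay below them. At 18.5-23 h the values were 3589, 4582 and 6815 and the change was -1.06 ± 0.11 (adjusted p = 6.74e-14), near the threshold: without either starved library of Cycle 1 it was -0.97 or -0.95 and not called. Cdh2, N-cadherin, had the next highest mean over all libraries, though in starved cells it stood below Cdh3, and was called in no window, but its values at 28-38 h, 896 to 1273, were all above the 555 to 638 of starved cells (0.88 ± 0.14, adjusted p = 2.58e-08). Its median share of the cadherin signal per kilobase was 4.1% in starved cells and 11.0% at 23.5-27 h.

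Cdh3, P-cadherin, fell fast and came partly back. Starved cells held 1006 to 1269, and the values at 6.5-10 h were 140, 202 and 264 (-2.48 ± 0.14, 0.179-fold, adjusted p = 5.88e-28). The drop from 2-3 h to 3.5-6 h was itself called (-1.30 ± 0.13, adjusted p = 8.2e-14), as were falls of 2.58% of all genes between these windows. From 10.5 h on the medians climbed from 328.9 to 547.5 at 18.5-23 h, without reaching the starved range in any library up to 38 h. Cdh24 was lower at 3.5-6 h and 6.5-10 h only.

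Other cadherins fell late or for good. Cdh8 dropped from 57.3 to 109.7 in starved cells to a median of 1.63 at 6.5-10 h and 0.745 at 10.5-14 h, under the worth of 1 read at the median depth. Its fitted change there was -5.76 ± 0.41 (adjusted p = 4.46e-22) and depends on the value added before the logarithm, being -4.00 with 5 added. Cdh5, the cadherin of endothelial junctions, held 48.6 to 77.5 in starved cells and 35.2 to 80.7 at 6.5-10 h, was called from 10.5 h on and declined to 1.9, 4.2 and 12.1 at 28-38 h (-3.54 ± 0.33, adjusted p = 2.03e-16), the largest fall of a cadherin with a mean of 20 or more. Its step from 14.5-18 h to 18.5-23 h was called (-1.06 ± 0.21, adjusted p = 0.00033), as were falls of 0.133% of all genes. Cdh1, the cadherin of epithelia, went from 23.8 to 66.1 in starved cells to 3.8, 6.6 and 13.7 at 28-38 h (-2.84 ± 0.31, adjusted p = 4.37e-13). Cdh4 was lower from 3.5 h and Cdh19 from 6.5 h, and Cdh10 was called at 23.5-27 h alone.

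Markers of other cell types were present at levels that moved with time. The endothelial marker Pecam1 averaged 26.9 in starved cells and 4.8 at 23.5-27 h, and Tek 61.5 and 6.5, while Flt1 was higher at 293.4 and 595. In sum the 12 endothelial markers gave 335 to 733 in starved cells and 506 to 891 at 23.5-27 h, and 8 of them had a mean under 10. Flt1 alone raised that sum, as every other marker of the list had a lower mean at 23.5-27 h than in starved cells. Of the 12, 1 was called higher and 1 lower in 1 or more windows. Epcam, the defining epithelial marker, averaged 20.3 in starved cells and 3.9 at 23.5-27 h, while Krt19 went from 49.2 to 225.5 and Krt18 from 81.0 to 81.2. Of the 13 epithelial markers found, 3 were called higher and 6 lower in 1 or more windows, and 6 had a mean under 10. The sum of these 13 was 233 to 462 in starved cells and 250 to 663 at 23.5-27 h. Muscle markers, skeletal and smooth together, were abundant, summing to 21773 to 67466 in starved cells and 121715 to 174442 at 23.5-27 h. Of the 10 found, 4 were called higher and 3 lower in 1 or more windows. Acta2 went from a mean of 28865 to 94533 and Tagln from 13094 to 43985. Means of Myog (63.8 to 9.8), Myod1 (13.5 to 2.1), Ckm (13.7 to 0.8) and Actc1 (339 to 245) went down. Neural and glial markers summed to 1199 to 1424 and 1952 to 3680. Of the 12 fibroblast markers 6 were called lower and 2 higher, and their sum went from 370600 to 547946 in starved cells to 182691 to 229173 at 23.5-27 h. Col1a1 averaged 102501 and 57719, Col1a2 131718 and 43678, and Col3a1 129446 and 12188. The part of other cell types in the values of Cdh5 and Cdh1 was not tested.

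The cadherins that rose did so from low levels. Cdh6 had values of 15.7 to 25.6 in starved cells and of 74.9, 134.6 and 195.7 at 3.5-6 h, with no overlap (2.41 ± 0.30, 5.32-fold, adjusted p = 3.9e-11), and its decline from 6.5-10 h to 10.5-14 h was called as well (-1.18 ± 0.21, adjusted p = 6.7e-06). Cdh22 stood at 0 to 3.8 in starved cells and at 7.6, 23.2 and 41.5 at 6.5-10 h (2.78 ± 0.38, adjusted p = 8.58e-10), and it passed the filter, with a mean of 10.1, only through the windows in which it was high. Cdh18 was lower at 3.5-6 h (-1.25 ± 0.38, adjusted p = 0.00252) and higher at 10.5-14 h, and its fall was not called with 5 added to the values or with means per Cycle and window (-1.02, adjusted p = 0.0641 by limma). Cdh23, an atypical cadherin of hair cell tip links with a starved mean of 8.9, was called higher from 6.5 to 18 h, with 2.66 in Cycle 1 and 0.31 in Cycle 2 at 6.5-10 h. With that starved mean Cdh23 passed the filter, at a mean of 16.8, only through libraries after serum.

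**Figure D4:**
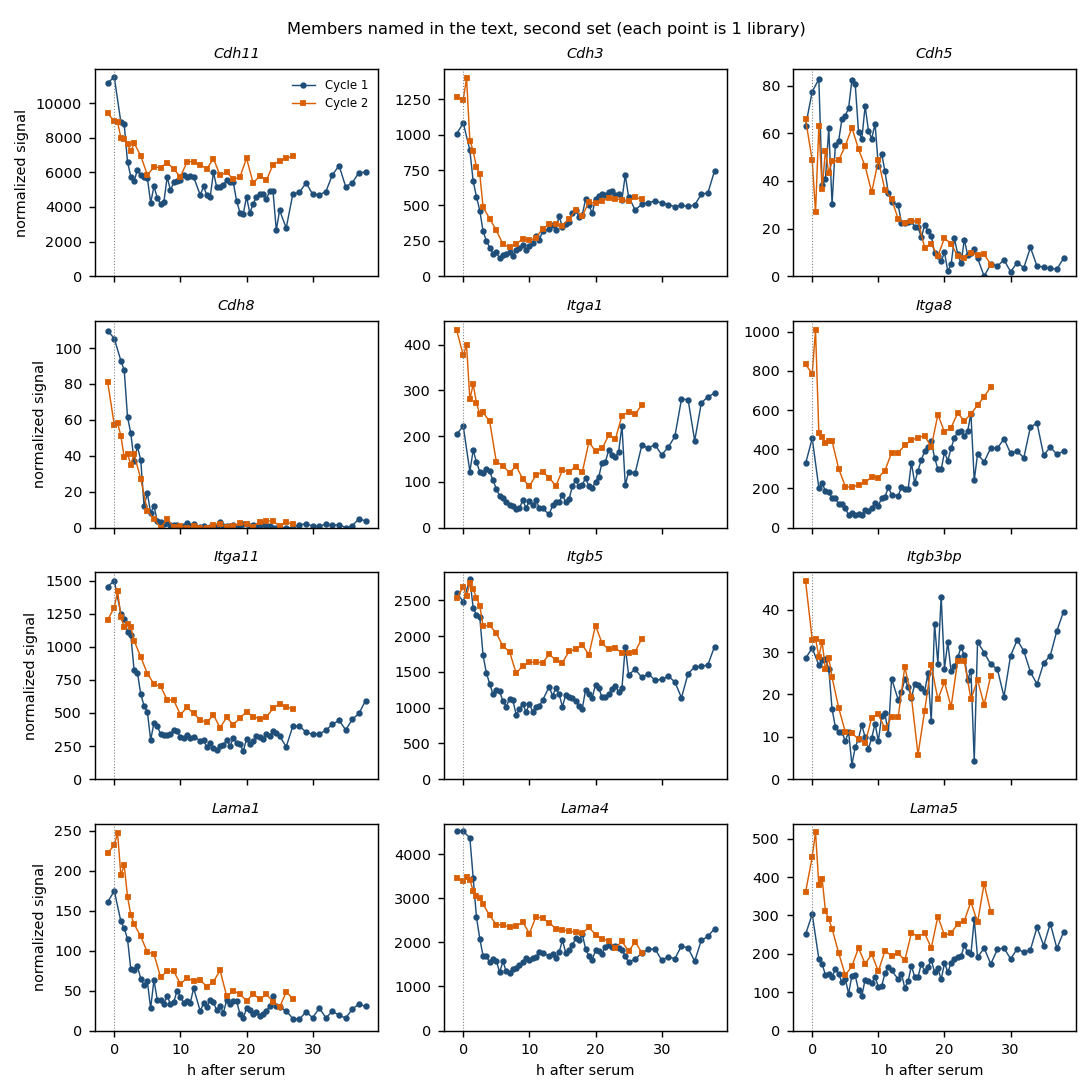
Normalized signal (vertical axis, from 0) against hours after serum (horizontal axis) of 12 members that were called lower, in Cycle 1 (circles) and Cycle 2 (squares), each point 1 library. Cdh3, Itga1, Itga8 and Itgb3bp have a trough within the first 14 h and climb again, Cdh8 and Lama1 stay low, and Cdh5 is lowest after 18 h.

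Of the 5 laminin alpha chains 4 were called lower, beside 34.3% of all genes, and limma called 0 higher (also 0 at an unadjusted p under 0.05), beside 15.8%. All 4 kept the call at their largest change under TMM and median of ratios scaling. Lama4, the alpha chain of mesenchymal and vascular laminins, held 85.9% to 89.3% of the summed laminin alpha signal per kilobase in starved cells and a median of 85.8% at 23.5-27 h. Its starved values were 3389 to 4529, its values at 6.5-10 h were 1310, 1579 and 2467, and every library from 2 h on lay below the starved ones (-1.15 ± 0.11, adjusted p = 1.86e-16). Lama1, the alpha chain of the first embryonic basement membranes, had the largest fall, from 161 to 232 in starved cells to 14.3, 23.4 and 33.1 at 28-38 h (-2.75 ± 0.19, 0.149-fold, adjusted p = 1.78e-23). Lama5 fell to 90.4, 136.7 and 215.3 at 6.5-10 h from 251 to 452 (-1.15 ± 0.12, adjusted p = 9.72e-14) and was not called from 10.5 h on. Lama3, the alpha chain of epithelial laminin, was lower from 10.5 h (-2.17 ± 0.34 at 23.5-27 h, adjusted p = 2.66e-08). Lama2, the muscle and nerve chain, changed by -0.93 ± 0.17 and was not called.

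Of the 6 beta and gamma chains 2 were higher and 1 lower, beside 15.8% and 34.3% of all genes. Lamc3 rose from a low level, from 2.9 to 10.5 to 14.3, 53.3 and 88.2 at 6.5-10 h (2.42 ± 0.22, adjusted p = 9.1e-17). With a starved mean of 7.3 it passed the filter only through the windows in which it was high. Lamc1, the gamma chain of most laminins, kept within the threshold but traced both directions. Its values were 4410 to 4888 in starved cells, 5028, 7859 and 8858 at 3.5-6 h (0.61 ± 0.12) and 2192, 2880 and 3385 at 18.5-23 h (-0.68 ± 0.12, adjusted p = 2.33e-07). Lamb1 and Lamb2, the common beta chains, changed by at most -0.85 ± 0.09 and -0.56 ± 0.09 and were not called. Lamb3 was called lower at 28-38 h, where Cycle 1 libraries held 3.8 to 8.8 against 31.6 and 34.6 in the starved cells of that Cycle. The starved cells of Cycle 2 held 1.9 and 4.1, and without Cycle in the fit the change was -0.77 (adjusted p = 0.352).

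Syndecans rose or held. Sdc4, the syndecan of focal adhesions, was higher in the first 3 windows. Its starved values were 834 and 953 in Cycle 1 and 2002 and 2101 in Cycle 2, its values at 2-3 h were 4284, 4716 and 6217, and the change was 1.87 ± 0.20 (3.66-fold, adjusted p = 4.95e-14). Each of the 5 libraries at 0.5-1.5 h was already above the starved range. Sdc1 followed at 2-3 h, was highest at 3.5-6 h with 3813, 4257 and 4909 against 1373 to 1432 (1.62 ± 0.10, adjusted p = 1.92e-25), and at 23.5-27 h was back to a median of 1580. Sdc3 had the highest mean of the family and climbed slowly, from 1710 to 1765 in starved cells to 2850, 2967 and 3854 at 23.5-27 h, with all 10 libraries above the starved ones and a change under the threshold (0.79 ± 0.08, adjusted p = 2.87e-14). Sdc2 changed by at most -0.45 ± 0.07. Per kilobase, Sdc4 went from a median of 30.2% of the syndecan signal in starved cells to 50.4% at 2-3 h and 31.9% at 23.5-27 h, and Sdc2 from 28.1% to 12.6% and 21.2%.

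The 2 integrin-binding proteins that were tested are not adhesion receptors. Itgb1bp1, which binds the tail of Itgb1, held 375 to 444 in starved cells and was called in no window (-0.33 ± 0.09 at 3.5-6 h). Itgb3bp, the centromere protein, fell from 28.6 to 46.7 to 3.4, 11.1 and 16.8 at 3.5-6 h (-1.66 ± 0.27, adjusted p = 6.61e-08) and was back at a median of 27.9 at 18.5-23 h. Exons of Itgb3bp and Itgb1bp1 overlap those of Pgm2 and Asap2 on the other strand over 398 and 402 bases, and reads were counted without strand, so part of these values may come from the neighbour. The same holds over 1124 bases of Itga4 (Cerkl) and over 634 bases of Itgav (Gm13684).

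Between neighbouring windows most calls of members fell in the first 6 h. From 0.5-1.5 h to 2-3 h 5 members rose and 0 fell by limma (13 at an unadjusted p under 0.05), beside 3.76% and 6.37% of all genes. The step to 3.5-6 h had 5 rises and 4 falls, beside 3.24% and 2.58%. Itgb3 rose at both steps (1.77 ± 0.22 and 1.66 ± 0.19) and fell at the later steps to 10.5-14 h (-1.38 ± 0.15) and to 14.5-18 h (-1.14 ± 0.15). The step to 6.5-10 h had 2 rises (Cdh13 and Cdh18, all genes 1.82%) and 1 fall (Cdh8, 1.77%), that to 10.5-14 h 3 falls (0.89%) and that to 14.5-18 h 1 (0.266%). Between 18.5-23 h and 23.5-27 h limma called 0 members (12 at an unadjusted p under 0.05), beside 6 of 12804 genes, all lower (0.0469%), and the last step had 2 falls (Lamb3 and Lamc3, 0.633%).

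Responses differed between the time courses. A difference of more than 1 between the log2 changes of Cycle 1 and Cycle 2 was called in 14 of the 52 members in 1 or more windows up to 27 h, beside 21.7% of all genes tested, and in 12 when the 5.5, 24.5 and 26 h libraries of Cycle 1 were left out. Sdc4 was called in all 8 windows, with 2.33 in Cycle 1 and 0.62 in Cycle 2 at 3.5-6 h (difference -1.71 ± 0.21, adjusted p = 4.77e-09). In Cycle 1 and Cycle 2 its starved means were 893 and 2052, and its values were 5025 and 3543 at 4 h and 1661 and 1594 at 20 h. The part of the starved values in this difference was not tested. For Itga5 the changes at 2-3 h were 3.59 and 2.31 (difference -1.28 ± 0.27, adjusted p = 0.000485). Lama4 fell by 1.63 in Cycle 1 and by 0.55 in Cycle 2 at 6.5-10 h (difference 1.08 ± 0.13, adjusted p = 1.22e-09). Cdh23 rose in Cycle 1 (2.56 at 10.5-14 h) and was at 0.02 in Cycle 2 (difference -2.54 ± 0.50, adjusted p = 6.11e-05). Each gene was also compared in its window of largest mean change over both Cycles, up to 27 h. There the direction was the same in each Cycle for 52 of 52 members and for 98.6% of all genes. Picking the window by that mean favours like directions, so these shares are no test of agreement, and other windows could differ in direction. In the picked window the change was larger in Cycle 1 for 43 of the 52 members (82.7%) and for 84.2% of all genes.

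**Figure D5:**
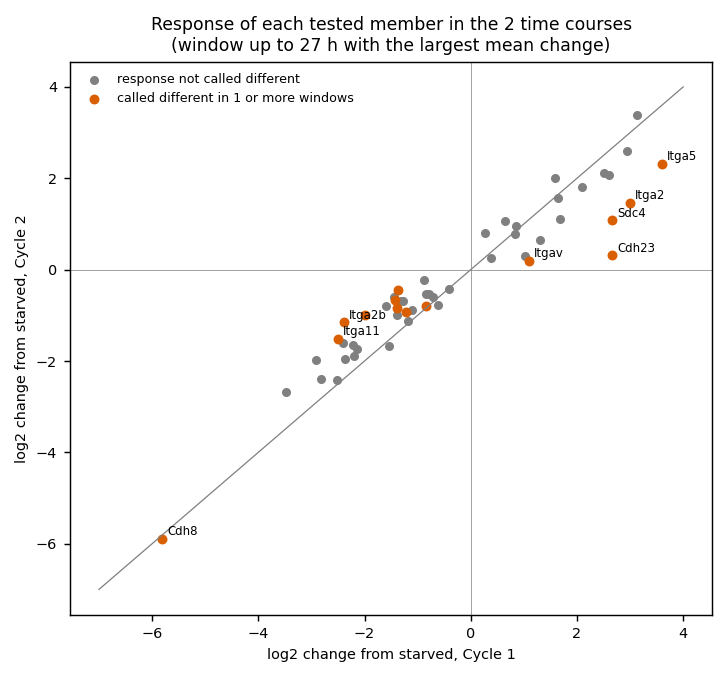
Log2 change from starved cells in Cycle 1 (horizontal axis) and Cycle 2 (vertical axis) of the 52 tested members, each in its window of largest mean change up to 27 h, with a line of equal change. Filled orange points are the 14 members whose response was called different in 1 or more windows (8 are named), and 43 of 52 points show the larger change in Cycle 1.

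The proteins that work with these receptors were counted from lists chosen with earlier results known. Among the focal adhesion adaptors, which tie integrins to actin, 12 of 29 tested were higher and 3 lower in 1 or more windows, beside 15.8% and 34.3% of all genes, and at 23.5-27 h 11 were higher, beside 7.15%. The same shares of all genes, 15.8% and 34.3%, stand beside the counts of the lists that follow. Parvb (beta-parvin) was at 471, 691 and 805 at 6.5-10 h against 39.2 to 114.5 in starved cells (3.17 ± 0.20), and Lims2 reached a median of 406 at 18.5-23 h (2.28 ± 0.16). Kank1 (-1.44 ± 0.12 at 3.5-6 h), Nedd9 (-1.36 ± 0.12 at 3.5-6 h) and Kank2 (-1.01 ± 0.11 at 2-3 h) were the 3 that fell. Of the basement membrane partners of laminins 13 of 19 were lower and 2 higher, 1 of them being both. Frem1 went from 186 to 455 in starved cells to a median of 12.4 at 23.5-27 h (-4.62 ± 0.34), Nid2 (nidogen 2) to 377 at 10.5-14 h (-1.95 ± 0.17) and Col15a1 to 274 at 18.5-23 h (-1.82 ± 0.13), while Ntn4 rose (1.60 ± 0.23 at 6.5-10 h).

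Of the matrix ligands of integrins 6 of 20 were higher and 10 lower in 1 or more windows, again beside 15.8% and 34.3% of all genes. Npnt was in both counts, being called higher in 5 windows and lower in 1. Ctgf reached 49396, 52704 and 59259 at 6.5-10 h from 1715 to 9105 in starved cells (3.69 ± 0.33), Tnc (tenascin C) rose by 2.97 ± 0.16 in the same window, and Npnt (nephronectin, the ligand of the Itga8 receptor) by 2.63 ± 0.18 at 28-38 h. Nov (-3.21 ± 0.19 at 28-38 h), Postn (-2.66 ± 0.15 at 28-38 h) and Edil3 (-2.59 ± 0.24 at 23.5-27 h) fell. Of the glypicans, heparan sulfate enzymes and syndecan adaptors 11 of 27 were lower, a share near that of all genes, and 2 higher, 1 of them being both. They were led by Gpc3 (-2.27 ± 0.09 at 28-38 h) and Sulf2 (-1.81 ± 0.13 at 18.5-23 h) on the one side and Gpc1 (1.15 ± 0.10 at 3.5-6 h) on the other. Catenins and nectin junction genes were mostly uncalled, at 3 higher and 2 lower of 16, with Pkp2 (1.92 ± 0.13 at 28-38 h) and Pvrl1 (nectin 1, 1.80 ± 0.15 at 2-3 h) higher and Ctnna2 lower (-2.34 ± 0.19 at 10.5-14 h). Among 8 transcription factors of the cadherin switch, several of which repress Cdh1 in epithelial cells, 3 were higher and 4 lower, 1 of them being both. Snai1 stood at 1476 to 2355 at 6.5-10 h against 374 to 575 (1.94 ± 0.14), and Snai2 at 72.1 to 189.8 at 2-3 h against 438 to 639 (-2.09 ± 0.17). Adjusted p-values of these partner genes were at most 2.34e-09 by limma over all genes.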

How the data were processed

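RNA-seq of CF-1 MEFs was deposited as 1 table of 96 columns, of which 95 matched a sample label and 1 was not used. Per the labels and the study's methods, the authors demultiplexed with CASAVA, aligned reads to mm9 with STAR and made the deposited signal values with HOMER, as exon reads of both strands scaled to 10000000 per library, although the kit was stranded. The table holds 1 row per symbol, and 3291 of 15895 rows, 7 members among them, are averages over transcripts. Versions of these tools are not given in the sources used here.

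From these values log2(value + 1) was fitted with limma 3.58.1 (R 4.3.3, trend in the variance) over all 95 libraries, with 10 groups (starved cells and 9 windows) and Cycle as a block, for the 12804 genes of mean value 10 or more. A call needed a Benjamini-Hochberg adjusted p under 0.05, a log2 change over 1 and the same sign in each Cycle sampled. The Cycle difference was tested as an interaction up to 27 h over 12815 genes. In 93 libraries the values gave whole reads (at least 99.9% of low values within 0.05), which edgeR 4.0.16 tested as an alternative. The procedure was tested on simulated data. Positions and lengths came from NCBIM37 with GENCODE vM1, and promoters from RefSeq GRCm38.p6. Figures were drawn with Python 3.11.15 and matplotlib 3.10.9.

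The members and the gene lists were chosen with earlier results of these data known. Members named in the text are those called in 1 or more windows at their largest change, the 2 of highest mean in each family, Cdh1, and up to 3 called genes per direction of each partner list. Values by library are given for the largest rise, largest fall and highest mean of each family. Others named in the text were chosen after their values were seen. The pairing across groups is by Cycle, which the labels name. Alternatives were other pseudocounts, filters and scalings, no block, 1 Cycle alone, course means, edgeR, the adjusted p alone and leaving out libraries, and 1 alternative, without 3 libraries that stood apart, was added after the data were seen. Values of 1 member and of some other genes that these rules would name are not reported here.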

Additional observations from a re-analysis of the deposited data

Results flagged for a closer look

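In 4 of the 85 window groups of 4 to 10 libraries, both Cycles together, examined over 17 members, 1 library stood far from the others by Dixon's criterion, which flags about 1 in 20 groups by chance. Itga1 was 232 at 4 h of Cycle 2, against 65.2 to 144 in the other libraries of 3.5-6 h. Itgb3bp was 4.2 and Sdc3 was 3854 in the 24.5 h library of Cycle 1, the one that stood apart over all genes. Lama4 was 4371 at 1 h of Cycle 1, against 3172 to 3483 in the other libraries of 0.5-1.5 h.

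The responses of 14 members differed between the time courses by limma's interaction test, and each is given here as Cycle 2 minus Cycle 1 at the window of its largest difference. The response was smaller in Cycle 2 for the rises of Sdc4 (-1.71 at 3.5-6 h), Itga5 (-1.32 at 0.5-1.5 h), Itga2 (-2.17 at 3.5-6 h) and Cdh23 (-2.54 at 10.5-14 h). Itgav rose in Cycle 1 alone at 3.5-6 h (1.08, with -0.04 in Cycle 2, difference -1.11). Falls were also smaller in Cycle 2 for Cdh11 (1.11 at 23.5-27 h), Cdh24 (1.01 at 3.5-6 h), Cdh8 (2.17 at 23.5-27 h), Itga11 (1.00 at 6.5-10 h) and Itga2b (1.75 at 14.5-18 h). The same held for Itgb4 (1.58 at 18.5-23 h), Lama2 (1.10 at 10.5-14 h) and Lama4 (1.08 at 6.5-10 h). For Cdh8 the changes at 23.5-27 h were -6.59 in Cycle 1 and -4.42 in Cycle 2, so its difference lies between values of few reads. Itga10 was lower in Cycle 1 alone at 14.5-18 h (-1.12, with 0.08 in Cycle 2, difference 1.21). The starved libraries of the time courses differed too, as given for Sdc4 and Itga5 in the report, and their part in these differences was not tested.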

How the results depend on the processing

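Over 24 alternative settings 1173 of 1219 values of named members kept their direction and their side of the threshold, 23 crossed it upwards, 23 crossed it downwards and 0 changed direction. Without a filter 6 members were called at 0.5-1.5 h and 24 at 28-38 h. With a mean value of 50 or more, which tests fewer genes, 8 members were higher and 13 lower in 1 or more windows, and 17, 14, 8, 5, 5, 8 and 5 were called in the windows from 3.5-6 h to 28-38 h. In Cycle 1 alone 14 were called at 2-3 h. In Cycle 2 alone 1 was called at 0.5-1.5 h and 5 at 2-3 h. With the adjusted p alone 23 were higher and 38 lower, and the windows held 7, 29, 42, 44, 42, 40, 39, 42 and 36 calls. Leaving out 1 library at a time gave 12 to 15 higher and 23 to 26 lower members and 1 to 4 calls at 0.5-1.5 h, where 1 was left without the -1 h library of Cycle 1. Without Cycle as the replicate block 14 were higher and 24 lower, and Lamb3 at 28-38 h was lost (-0.77), and the cause was not tested. The calls of Itga4 and Itgb5 were lost under other scalings, and Cdh18 with a pseudocount of 5 (-0.85). Cdh18 (-1.02) and Itga7 (0.98) were lost with means per Cycle and window. In Cycle 2 alone Cdh10, Cdh11 (-0.66), Cdh18, Cdh23, Cdh24, Itga4, Itga7, Itgb5 (-0.69) and Lama4 (-0.55) lost theirs, all but Cdh18 and Cdh23 with an adjusted p still under 0.05 and a change under 1. Calls were most numerous at 3.5-6 h in the main fit (26 against 25 at 6.5-10 h), but at 6.5-10 h in many settings. These were TMM scaling (21 against 25), median of ratios scaling, edgeR, means per Cycle and window, the adjusted p alone and each Cycle alone. They were also the fits without any 1 starved library and without the 5.5, 24.5 and 26 h libraries of Cycle 1. Depth limits the members of low signal, and the 28-38 h window rests on 1 Cycle.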
